A study of Homo sapiens with 8 samples.

Results

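The genes described here encode molecular chaperones, co-chaperones and protein folding enzymes, and the measurements are m6A peaks on their transcripts in BCPAP, a cell line established from a papillary thyroid carcinoma. Members were taken by gene symbol (HSP, DNAJA to DNAJC, PDIA, FKBP and cyclophilin genes, chaperonin, prefoldin, BAG, ER lectin and ER oxidase genes), without pseudogenes, antisense and divergent transcripts. This gave 80 peaks on 49 genes, out of 10987 peaks and 7081 named genes listed by the authors' deposited table. The study knocked down METTL3, the catalytic subunit of the main mRNA m6A methyltransferase, and sequenced fragmented poly(A) RNA before and after pull-down with an m6A antibody. Control cells and METTL3 knockdown cells each gave 2 input and 2 pull-down libraries, 8 in all. Titles give the knockdown libraries as sh1 or sh3, with 1 of each per type. The sh1 libraries carry the prefix A and the sh3 libraries the prefix B, each beside controls of the same prefix. What the prefixes stand for is not said, and hairpin and prefix cannot be told apart. Titles also leave unsaid what the control cells carried and whether libraries came from separate cultures. The p-values may thus measure technical and hairpin differences without any spread between separate cultures. Each peak comes with 1 fold change of m6A enrichment, 1 p-value and 1 false discovery rate (FDR) from the authors, so values per library, their spread and their depth were not analysed here. METTL3 has 0 peaks in the table, so the knockdown itself cannot be checked from it. How the fold change was corrected for input is not given, so less m6A per transcript and less RNA cannot be told apart here. Of 7 thyroid lineage genes looked for, PAX8 was the 1 with a peak, and transcript levels were not analysed here. All fold changes are log2 values read as knockdown relative to control, which the column header does not state, and every direction would turn around under the opposite reading.

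Chaperones bind unfolded or partly folded proteins and keep them from aggregating. HSP70 proteins work in cycles of ATP hydrolysis: J-domain proteins deliver the client and stimulate hydrolysis, and nucleotide exchange factors, among them the HSP110 proteins, release it. HSP90 takes over many clients with the help of co-chaperones, chaperonins fold proteins inside a closed chamber, and in the ER calnexin and protein disulfide isomerases fold glycoproteins, while FKBPs and cyclophilins turn peptide bonds before proline. m6A is written on mRNA mostly near stop codons and in 3' UTRs, and reader proteins use it to set stability and translation.

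Peaks of chaperone and folding genes that passed the threshold were mostly lower in the knockdown. At an FDR under 0.05, the authors' deposited table called 18 of the 80 peaks, 15 lower and 3 higher, on 15 of the 49 genes. The 12 genes with lower peaks were HSPA4, HSPD1, DNAJA1, DNAJB1, DNAJB6, DNAJC7, CANX, PDIA3, FKBP2, FKBP3, PPID and PPIG, and the 3 with higher peaks were HSPA6, DNAJB12 and FKBP15. Among all 10987 peaks 17.1% were called, 10.6% as lower and 6.52% as higher, while the members had 22.5% called, 18.8% as lower. By gene, 30.6% of the members had a called peak, against 22.3% of all named genes per the authors' deposited table. All peaks and all named genes include pseudogenes and antisense transcripts, which the members leave out, so the sets compared are unlike. The median log2 fold change over the 80 peaks was -0.32 (quartiles -0.70 and 0.28), and over all peaks it was -0.235 (quartiles -0.69 and 0.61) per the authors' deposited table. At an FDR under 0.01, 11 of the lower calls and 0 of the higher calls were left. When the all-peak median was subtracted from each fold change, 11 of the called member peaks were lower and 7 higher. The matching shares over all peaks were not computed for these settings, so these counts cannot be read as particular to the members. No test of the list as a whole was made, and some member peaks overlap each other, so that the 18 called peaks lie in 16 separate places.

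**Figure D1:**
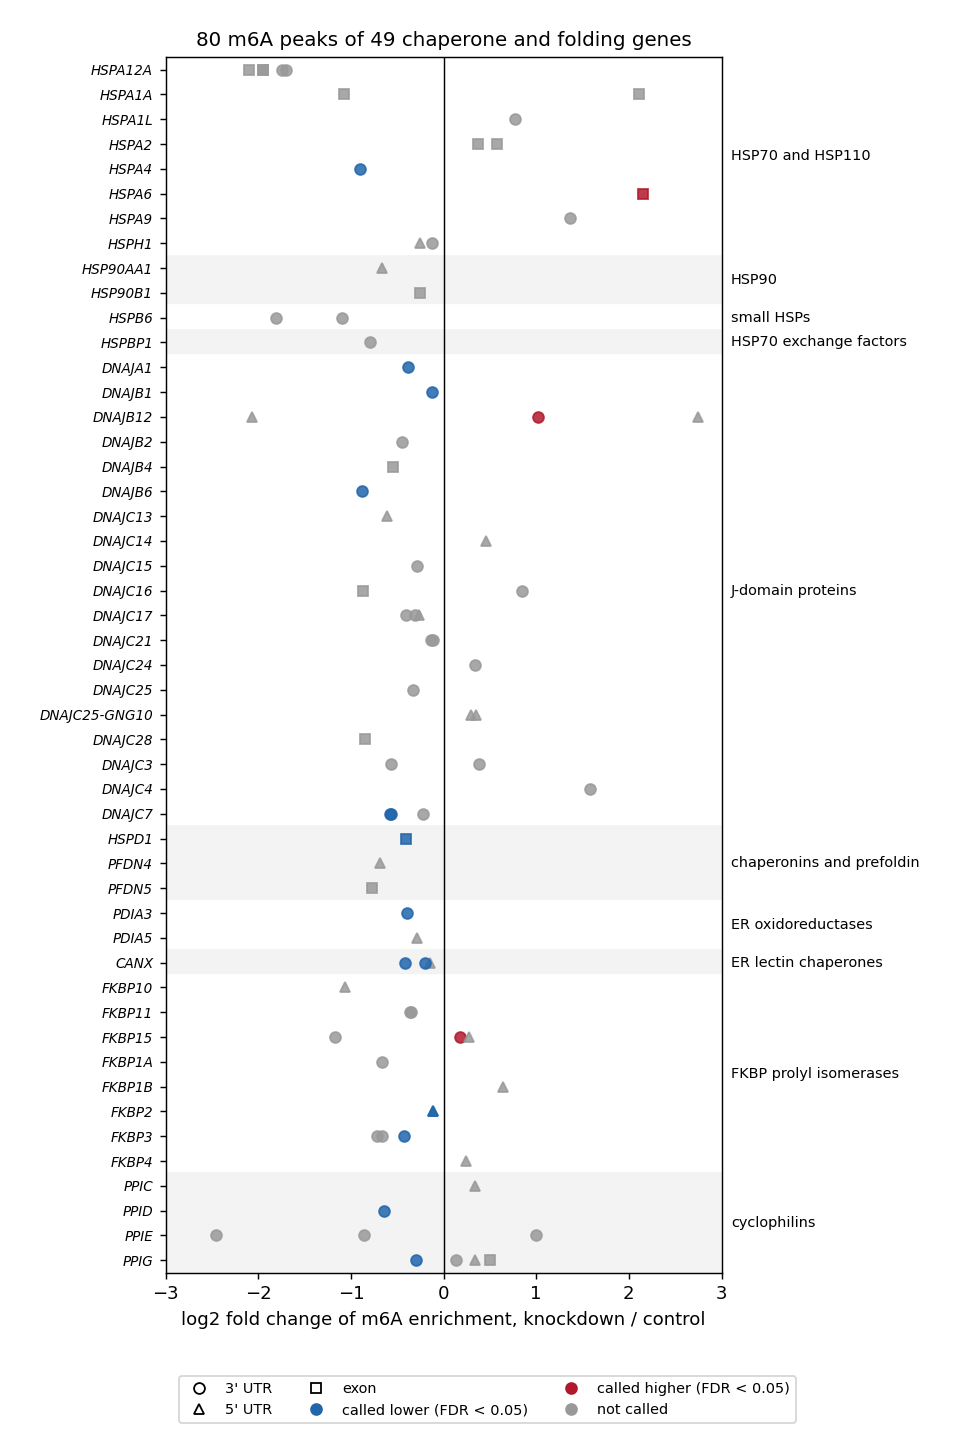
Log2 fold change of m6A enrichment (knockdown over control, horizontal axis) for each of the 80 peaks, with genes in rows grouped by role; circles, triangles and squares mark peaks annotated to the 3' UTR, the 5' UTR and other exons, and colour marks the 15 peaks called lower (blue), the 3 called higher (red) and the rest (grey). The called lower peaks sit between -0.908 and -0.11, and grey peaks reach from -2.46 to 2.75.

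The size of a change and its call went separate ways. Log2 fold changes reached 1 or more in size for 19 member peaks, and 2 of these were called per the authors' deposited table (HSPA6 and DNAJB12, both higher). That is 10.5%, near the share over all peaks, where 3612 reached this size and 314 of them (8.69%) were called. The called member peaks had a median absolute log2 fold change of 0.41, and those not called 0.60, per the authors' deposited table. Over all peaks of that table the corresponding medians were 0.45 and 0.71. The smallest FDR among the members per the authors' deposited table, 2.00e-43, belonged to a PDIA3 peak at -0.394, whereas a DNAJB12 peak at 2.75 had an FDR of 0.406. These large uncalled values are therefore given below as values and not as changes.

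**Figure D2:**
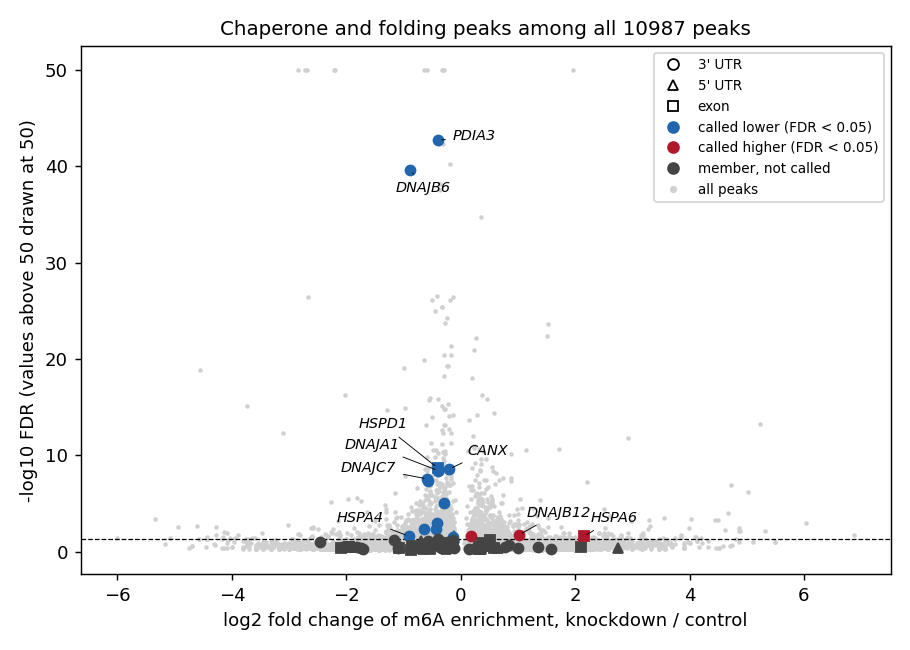
Log2 fold change (horizontal axis) against -log10 of the deposited FDR (vertical axis, drawn at 50 where larger) for all 10987 peaks (light grey) and the 80 member peaks (symbols as for the plot by gene, dark grey where not called); the dashed line is an FDR of 0.05. PDIA3 at -0.394 and DNAJB6 at -0.878 stand highest among the members, and most member peaks beyond 1 or -1 lie under the line.

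The HSP70 and HSP110 group had 8 genes in the table, of which HSPA4 was lower, HSPA6 was higher and 6 did not pass the threshold. With 25.0% of its genes called, the group was near the 22.3% of all named genes. HSPA4, an HSP110 protein that acts as an exchange factor for HSP70, fell by 0.908 on the log2 scale within the 3' UTR (ENSG00000170606, chr5:133106121-133106270, 0.533-fold, FDR 0.024 per the authors' deposited table). HSPA6, an HSP70 gene known for strict induction by stress, was higher by 2.15, or 4.44-fold, in its 1 exon (ENSG00000173110, chr1:161524898-161525672, FDR 0.0263 per the authors' deposited table). Neither call held at an FDR under 0.01, and HSPA6 has a near-identical copy, HSPA7, so that its reads are uncertain. HSPA1A, the main stress-inducible HSP70, had exon peaks at -1.08 and 2.11, with FDRs of 0.454 and 0.303 per the authors' deposited table. Its near-identical neighbour HSPA1B has no row in the table used here, so reads of the pair can have been placed on either copy. HSPA2, an HSP70 abundant in testis, had 0.37 and 0.581, and HSPA1L, a further testis form, had 0.767, with FDRs of 0.114, 0.432 and 0.314 per the authors' deposited table. The mitochondrial HSP70 HSPA9 stood at 1.36 with an FDR of 0.356, and HSPH1, another HSP110 protein, at -0.126 and -0.251 with FDRs of 0.345 and 0.432 per the authors' deposited table.

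Sequence before the transcription start was read from RefSeq (GRCh38.p14) for 43 of the 49 genes, in 62 start windows, because a part of this family is known for heat shock elements, the binding sites of HSF1. Searched on both strands over the 250 bases before the start, the form of 3 units (GAANNTTCNNGAA or TTCNNGAANNTTC) was found in 4 member windows (6.45%) and in 0.441% of all 35116 windows. The 4 genes were HSPA6, DNAJB6, HSPD1 and HSP90AA1. The first of these had the highest called peak of the members, DNAJB6 and HSPD1 had called lower peaks and HSP90AA1 had none. Its element lies before another start than the one its peak covers. The shorter form GAANNTTC, which is contained in the longer ones, was in 10 member windows (16.1%) and in 5.78% of all windows. The HSPA1A and HSPA1L windows share the same site, within chr6:31815425-31815456, read on opposite strands, so it is counted for both genes. HSPD1 holds a further, overlapping element of 3 units, 245 to 233 bases before its start, which is not printed. The other elements of 3 units are shown with their fixed letters in capitals, 5' to 3' on the gene's strand.
HSPA6, chr1:161524454-161524490, plus strand: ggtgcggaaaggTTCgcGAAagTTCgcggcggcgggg
DNAJB6, chr7:157336861-157336897, plus strand: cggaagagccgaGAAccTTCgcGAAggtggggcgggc
HSPD1, chr2:197500056-197500090, minus strand: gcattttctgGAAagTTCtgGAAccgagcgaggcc
HSP90AA1, chr14:102087108-102087144, minus strand: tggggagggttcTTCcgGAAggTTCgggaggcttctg

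HSPA12A, a distant HSP70 relative, carried 5 separate peaks, the most of any member. All 5 were far below 0, from -2.1 to -1.7, yet the authors' deposited table gave them FDRs from 0.352 to 0.577. They lay close together on chromosome 10, between 116827264 and 116832959, so they are not independent observations. The annotation places 2 of them in a 3' UTR and 3 in the last exon of a transcript of 4 exons, although their midpoints lie 9.9 to 13.0% of the way along the gene as RefSeq bounds it.

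No peak of HSP90AA1, HSP90B1, HSPB6 or HSPBP1 passed the threshold. HSP90AA1, the stress-inducible cytosolic HSP90, had a 5' UTR peak at -0.667 with an FDR of 0.53, and HSP90B1, the HSP90 of the ER, an exon peak at -0.254 with an FDR of 0.112 per the authors' deposited table. The HSP90AA1 peak overlaps the bounds of the neighbouring gene WDR20. HSPB6, a small heat shock protein of muscle, had a pair of overlapping 3' UTR peaks at -1.81 and -1.1 with FDRs of 0.337 and 0.434 per the authors' deposited table. HSPBP1, an exchange factor for HSP70, stood at -0.795 with an FDR of 0.413 per the authors' deposited table.

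J-domain proteins formed the largest group, with 29 peaks on 19 genes. Of these genes 4 were lower, 1 was higher and 14 did not pass the threshold per the authors' deposited table, and the group's median log2 fold change was -0.284. The classes A and B, which hold the general partners of HSP70, had called peaks on 1 of 1 and 3 of 5 genes, and the more varied class C on 1 of 13, beside 22.3% of all named genes. The difference between classes was not tested. DNAJB6, which keeps polyglutamine and amyloid proteins from aggregating, fell by 0.878 on the log2 scale, or 0.544-fold, in a 3' UTR peak (ENSG00000105993, chr7:157385544-157385843, FDR 2.51e-40 per the authors' deposited table). The midpoint of this DNAJB6 peak lies 60.5% of the way along the gene as RefSeq bounds it, although its label is 3' UTR. DNAJC7, a co-chaperone that binds both HSP70 and HSP90, had -0.581 and -0.564 in peaks that share nearly all of their bases (ENSG00000168259, chr17:41976421-41976691 and chr17:41976425-41976694, FDRs 2.82e-08 and 4.90e-08 per the authors' deposited table). They count as 1 place, which also lies within the bounds of the neighbouring gene CNP, and the other DNAJC7 peak, away from CNP, had -0.219 with an FDR of 0.106 per the authors' deposited table. DNAJA1, a partner of cytosolic HSP70, fell by 0.388 on the log2 scale across a 3' UTR peak of 1982 bases (ENSG00000086061, chr9:33037087-33039068, FDR 3.98e-09 per the authors' deposited table).

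DNAJB1, the stress-inducible class B partner of HSP70, had a small value of -0.13 with an FDR of 0.0295 in its 3' UTR (ENSG00000132002, chr19:14515696-14516559), and it changed sign to 0.105 once the all-peak median was subtracted. DNAJB12, a J-domain protein anchored in the ER membrane, was the 1 higher gene of the group. Its 3' UTR peak was higher by 1.02, or 2.03-fold (ENSG00000148719, chr10:72332920-72333099, FDR 0.0178 per the authors' deposited table). Its 5' UTR held peaks at -2.07 and 2.75 with FDRs of 0.342 and 0.406 per the authors' deposited table, which lie on both ends of the range of all J-domain values. Nearest to the threshold without a call were DNAJC17, a splicing-related J-domain protein, at -0.404 with an FDR of 0.0537, DNAJC21, which acts in ribosome assembly, at -0.133 with 0.0617, and DNAJC3, an ER co-chaperone of the unfolded protein response, at -0.563 with 0.0759 per the authors' deposited table. DNAJC4 at 1.58 was the highest 3' UTR value of the members, with an FDR of 0.479 per the authors' deposited table. Other uncalled J-domain genes were DNAJB2, DNAJB4, DNAJC13, DNAJC14, DNAJC15, DNAJC16, DNAJC24, DNAJC25, DNAJC25-GNG10 and DNAJC28, with values between -0.874 and 0.844 per the authors' deposited table. DNAJC25-GNG10 is counted as a gene of its own, but its overlapping 5' UTR peaks, at 0.299 and 0.353, also overlap the bounds of DNAJC25. The peak listed under DNAJC25 had -0.334.

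For chaperonins and prefoldin, 3 genes had peaks and all 3 values were negative. HSPD1, the mitochondrial chaperonin HSP60, fell by 0.403 on the log2 scale, or 0.756-fold, in exon 11 of 12 (ENSG00000144381, chr2:197487092-197487870, FDR 2.04e-09 per the authors' deposited table). The prefoldin subunits PFDN4 and PFDN5, which hand actin and tubulin to the cytosolic chaperonin, had -0.692 and -0.778 with FDRs of 0.0759 and 0.462 per the authors' deposited table, and the exon named for PFDN5 belongs to another gene identifier. None of the 8 subunit genes TCP1, CCT2, CCT3, CCT4, CCT5, CCT6A, CCT7 and CCT8 of the cytosolic chaperonin has a row in the table used here.

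In the ER, calnexin and its partner PDIA3 had called lower peaks in the 3' UTR. PDIA3, the disulfide isomerase that works on glycoproteins held by calnexin, fell by 0.394 on the log2 scale, or 0.761-fold (ENSG00000167004, chr15:43770270-43771542, FDR 2.00e-43 per the authors' deposited table). CANX, calnexin itself, fell by 0.415 in a 3' UTR peak of 91 bases (ENSG00000127022, chr5:179730772-179730862, FDR 0.00112 per the authors' deposited table). A wide CANX peak also labelled 3' UTR, with a span of 4844 bases, had -0.202 with an FDR of 2.69e-09 per the authors' deposited table, and after the all-peak median was subtracted it stood just above 0 at 0.033. The 5' UTR peak of CANX was not called, at -0.151 with an FDR of 0.29 per the authors' deposited table. PDIA5, another disulfide isomerase, had -0.287 in its 5' UTR with an FDR of 0.439 per the authors' deposited table.

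The ER stress element (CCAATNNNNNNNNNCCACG or its reverse complement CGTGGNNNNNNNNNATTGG), through which the unfolded protein response acts on ER chaperone genes, was in 3 of the 62 member windows (4.84%), on CANX and HSP90B1, and in 0.074% of all windows. The same CANX site lies before separate CANX starts and is counted in each of their windows. HSP90B1 holds a further element nearer its start, 89 to 71 bases before it, which is not printed. That element lies in the same window as the printed HSP90B1 element. The element is shown because CANX had called lower peaks in its 3' UTR while HSP90B1 had none, with the fixed letters in capitals.
CANX, chr5:179698766-179698808, plus strand: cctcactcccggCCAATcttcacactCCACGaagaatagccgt
HSP90B1, chr12:103930204-103930246, plus strand: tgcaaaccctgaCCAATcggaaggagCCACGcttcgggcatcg

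Of 8 FKBP genes, 2 were lower, 1 was higher and 5 did not pass, beside 22.3% of all named genes with a call. FKBP3, a nuclear FKBP, fell by 0.425 on the log2 scale, or 0.745-fold, in a 3' UTR peak (ENSG00000100442, chr14:45116043-45116282, FDR 0.00437 per the authors' deposited table). A pair of overlapping FKBP3 peaks nearby had -0.718 and -0.668 with FDRs of 0.348 and 0.392 per the authors' deposited table, and all 3 lie within the bounds of the neighbour PRPF39. FKBP2, an FKBP of the ER lumen, had overlapping 5' UTR peaks at -0.116 and -0.11 with FDRs of 0.0209 and 0.0372 per the authors' deposited table (ENSG00000173486, chr11:64241095-64244132 and chr11:64241003-64244132). They count as 1 place, which also overlaps the RefSeq gene LOC114841035. These are the smallest called values among the members, and both changed sign when the all-peak median was subtracted, to 0.119 and 0.125. FKBP15, an FKBP-related protein of endosomes and the actin cytoskeleton, was higher by 0.172 in a 3' UTR stretch with a span of 5078 bases (ENSG00000119321, chr9:113165526-113170603, FDR 0.0234 per the authors' deposited table). Its other 3' UTR peak had the opposite sign, -1.17 with an FDR of 0.0575 per the authors' deposited table, and overlaps the neighbour SLC31A2. FKBP1A, the binding partner of FK506 and rapamycin, had -0.669, FKBP10, an ER isomerase for collagen, had -1.06, and FKBP4, an HSP90 co-chaperone of steroid receptors, had 0.244, with FDRs of 0.213, 0.287 and 0.277 per the authors' deposited table. The FKBP10 peak lies outside the RefSeq bounds of its gene. The FKBP1A peak overlaps SDCBP2-AS1, and its midpoint lies beyond the end of FKBP1A. FKBP11 and FKBP1B also had no called peak, with values of -0.361, -0.35 and 0.644 per the authors' deposited table.

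Peaks of 11 member genes reached 17 RefSeq start segments, the first 50 transcribed bases. The m6A consensus, searched on the transcript strand as GGAC followed by any base but G, was in 3 of these segments and in 14.5% of all 35116. FKBP2 is the 1 gene whose peak there was called, and its site inside both called 5' UTR peaks is shown with the consensus in capitals. The match says nothing of whether this base is methylated.
FKBP2, chr11:64241959-64241987, plus strand: tgttggtgtgctGGACCgggggcagctgg

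Of 4 cyclophilin genes, 2 were lower and 2 did not pass, beside 22.3% of all named genes with a call. PPID, the cyclophilin that serves HSP90 as a co-chaperone, fell by 0.642 on the log2 scale, or 0.641-fold, in a 3' UTR peak (ENSG00000171497, chr4:158715565-158717072, FDR 0.00468 per the authors' deposited table). The midpoint of this PPID peak lies 49.6% of the way along the gene as RefSeq bounds it, although its label is 3' UTR. PPIG, a nuclear cyclophilin with an arginine and serine rich tail, had 4 peaks along chromosome 2, the first 3 positive and the last negative. Its 5' UTR, exon and first 3' UTR peaks stood at 0.344, 0.505 and 0.137 with FDRs of 0.506, 0.0676 and 0.486 per the authors' deposited table. The last peak, with a span of 4014 bases in the 3' UTR, was the 1 that was called, at -0.294 (ENSG00000138398, chr2:169633562-169637575, FDR 8.51e-06 per the authors' deposited table). PPIE, a cyclophilin of the spliceosome, had the lowest value of all members at -2.46, with other peaks at -0.862 and 1, and FDRs of 0.108, 0.45 and 0.448 per the authors' deposited table; all 3 overlap the neighbour BMP8B. PPIC, a cyclophilin of the secretory pathway, had 0.339 with an FDR of 0.421 per the authors' deposited table. The PPIC peak spans 18280 bases, and its midpoint lies before the start of the gene as RefSeq bounds it.

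By the GO terms the authors attached, the 26 peaks of genes annotated to protein folding had 6 calls, all lower, and the 21 peaks of prolyl isomerases had 6, of which 5 were lower, where 17.1% of all peaks were called and 10.6% were called lower. The 13 peaks of genes annotated to the ER had 4 calls, 3 lower and 1 higher. The 43 peaks of genes annotated to the nucleus, PDIA3, DNAJB12 and HSPA9 among them, had 10 calls, of which 8 were lower. Unfolded protein binding had 2 of 13 peaks called and ATP binding 2 of 15, each with 1 lower and 1 higher, Hsp70 protein binding had 3 of 5, with 2 lower and 1 higher, mitochondrion had 1 of 6, lower, and cytosol had 7 of 29, with 6 lower. These terms overlap, no difference from all peaks was tested, and CANX, HSPD1, DNAJA1 and DNAJB6 are in none of the 9.

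Where a gene had more than 1 peak, the signs agreed more often than they differed. The peaks of FKBP2, FKBP11, HSPB6 and DNAJC25-GNG10 overlap in 1 place each, so their agreement adds little. The matching share over all genes was not computed. Of 19 such genes, 10 had negative values throughout, 2 had positive values throughout and 7 had both per the authors' deposited table, with DNAJC25 and DNAJC25-GNG10 counted apart. Among the genes with a call, DNAJB12, FKBP15 and PPIG were of the mixed kind, so their called peak does not give a direction for the whole transcript.

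**Figure D3:**
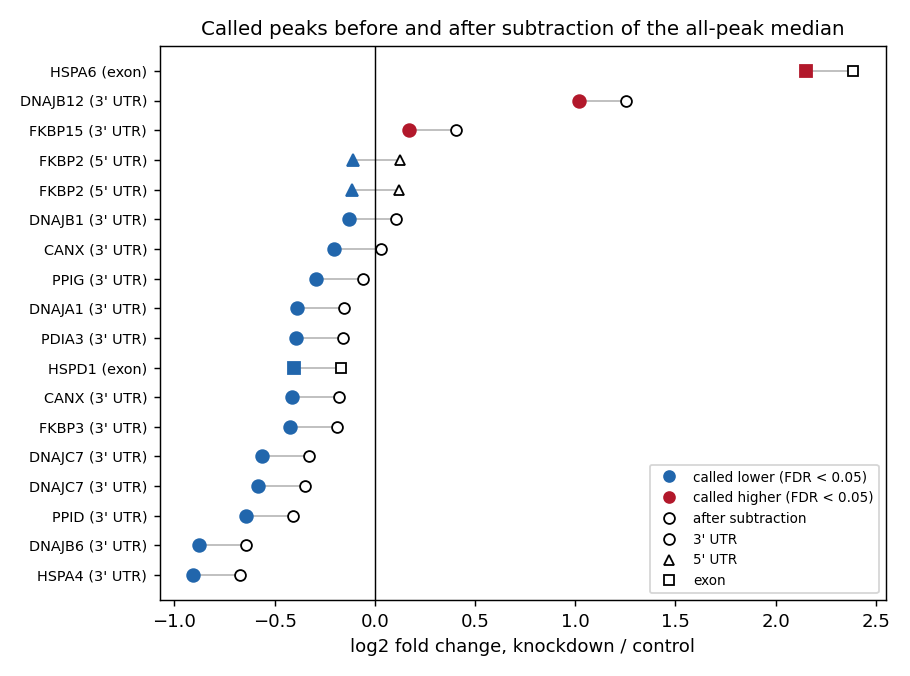
Log2 fold change (horizontal axis) of the 18 called member peaks as deposited (filled, blue lower and red higher) and after the median of all peaks, -0.235, was subtracted (open); circles, triangles and squares mark 3' UTR, 5' UTR and exon peaks. The 2 FKBP2 peaks, the DNAJB1 peak and the wide CANX peak cross 0, and HSPA4, DNAJB6, PPID and DNAJC7 stay furthest below it.

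By region, the members' peaks lay more often in the 3' UTR than peaks at large. The authors' annotation put 56.2% of the 80 peaks in the 3' UTR, 25.0% in the 5' UTR and 18.8% in other exons, against 42.7%, 23.1% and 34.2% of all peaks. All peaks include those of pseudogenes and antisense transcripts, which the members leave out. The shares thus describe unlike sets, and how far this moves them was not tested. In the 3' UTR 14 of 45 member peaks were called (31.1%), 12 lower and 2 higher, where 21.8% of all 3' UTR peaks were called and 15.9% were called lower per the authors' deposited table. The members' lower calls in the 3' UTR thus made up 26.7% of their 3' UTR peaks. In the 5' UTR 2 of 20 were called, both of them on FKBP2, beside 16.8% of all 5' UTR peaks per the authors' deposited table. In other exons 2 of 15 were called (13.3%), HSPD1 lower and HSPA6 higher, beside 11.5% of all exon peaks per the authors' deposited table. Median log2 fold changes of the members were -0.388, -0.113 and -0.542 in the 3' UTR, 5' UTR and exons, and those of all peaks were -0.296, -0.14 and 0.23 per the authors' deposited table. The exon median of the members rests on 15 peaks, of which 3 are HSPA12A peaks. None of these differences between members and all peaks was tested.

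**Figure D4:**
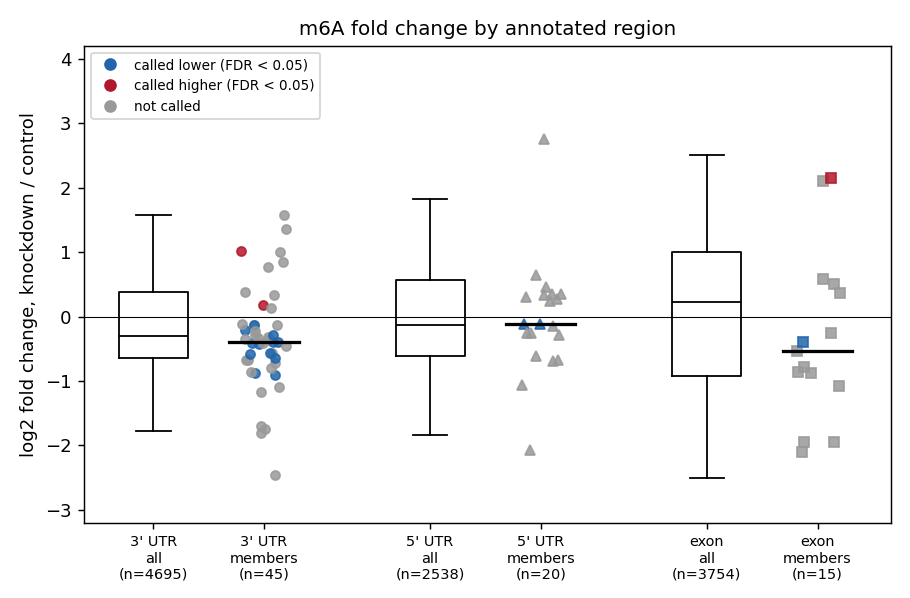
Log2 fold change (vertical axis) by annotated region, with boxes for all peaks (median, quartiles, whiskers at the 5th and 95th percentiles) and points for member peaks (blue called lower, red called higher, grey not called), where a bar marks the members' median. In the 3' UTR 12 of the 14 called member peaks lie below 0 and the members' median is -0.388 beside -0.296 for all 3' UTR peaks.

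Many genes of the family had no peak. RefSeq lists 147 protein-coding genes whose symbols fit the rule, and 49 of them (33.3%) have a peak per the authors' deposited table, where 28.7% of all 20056 protein-coding genes do. J-domain genes were present with 19 of 45, HSP70 and HSP110 genes with 8 of 16 and FKBP genes with 8 of 16. Chaperonin and prefoldin genes came with 3 of 17, ER oxidoreductases with 2 of 8, small heat shock proteins with 1 of 7, and BAG proteins, STIP1 and HSPBP1 together with 1 of 8. Genes without a row in the table used here include the abundant chaperones HSPA5, HSPA8, HSP90AB1, HSPB1, CALR, P4HB and PPIA. A missing row does not show that a transcript lacks m6A, since the sources used here do not give the filters behind the table. Symbols that fit the rule but do not name chaperones, such as HSPG2 and the TCP11 genes, account for 8 of the 147 and have 0 peaks.

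**Figure D5:**
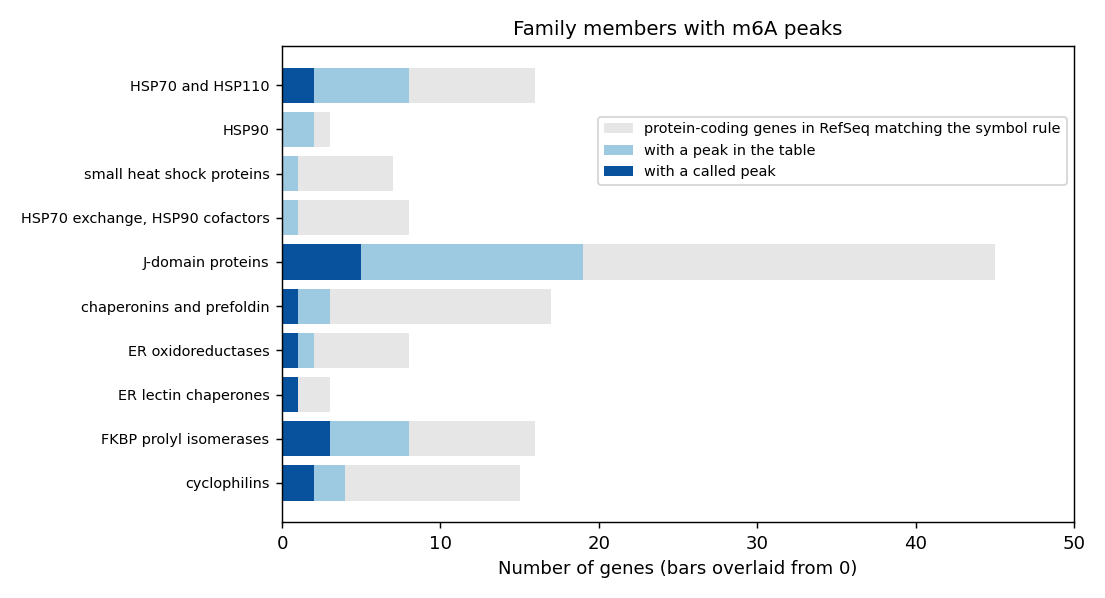
Number of genes (horizontal axis) in each role group, with overlaid bars for protein-coding genes of RefSeq that fit the symbol rule (grey), those with a peak in the table (light blue) and those with a called peak (dark blue). J-domain proteins have 45, 19 and 5 genes, and chaperonins and prefoldin 17, 3 and 1.

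Other genes of protein folding, all outside the symbol rule except DNAJC10, were read the same way. The unfolded protein response and ER-associated degradation list had 19 of 47 genes in the table, 6 with lower and 2 with higher called peaks and 12 without a call, SEC63 counting on both sides, where 22.3% of all named genes had a call. UGGT1, which returns misfolded glycoproteins to calnexin, fell by 0.358 on the log2 scale in its 3' UTR (FDR 2.51e-09 per the authors' deposited table). GANAB, a glucosidase that trims glycans ahead of calnexin binding, had -0.397 with an FDR of 0.0288, and EDEM3, which marks misfolded glycoproteins for degradation, had -0.837 with an FDR of 0.0148 per the authors' deposited table. SEC63, a J-domain protein of the ER translocon, had overlapping 5' UTR peaks at 0.88 and 0.892 and an exon peak at -0.399, with FDRs of 0.0447, 0.0282 and 0.00245 per the authors' deposited table. MANF and OS9 were lower by small amounts that changed sign under the median shift, and MBTPS1 was higher at 0.165 with an FDR of 0.0331 per the authors' deposited table. The median over the 29 peaks of this list was -0.286, beside -0.235 for all peaks.

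The list of other chaperones and co-chaperones had 22 of 47 genes in the table, 5 lower, 4 higher and 13 not called, with a median of 0.255 over 35 peaks, beside 22.3% of all named genes called and the all-peak median of -0.235. CLU, the secreted chaperone clusterin, was higher at 1.69 (FDR 0.0389), and AHSA2P, a transcribed relative of the HSP90 activator AHSA1, was lower at -0.931 (FDR 0.0479 per the authors' deposited table). URI1, a prefoldin-like protein, had -0.421 with an FDR of 3.55e-07 per the authors' deposited table. Of the heat shock factors HSF1, the main activator of chaperone genes under stress, was higher in a 5' UTR peak at 0.977 with an FDR of 0.0457 per the authors' deposited table, 1 of 2 genes with a peak. Among other cyclophilins PPIL2 was higher in overlapping 3' UTR peaks at 0.221 and 0.633 (FDRs 0.00676 and 0.00174 per the authors' deposited table), 1 of 2 genes with a peak. The other thioredoxin-like ER enzymes had 3 of 20 genes in the table and 0 calls, with all 4 peaks below 0. These 20 include DNAJC10, which has no peak and is also counted among the J-domain genes.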

How the data were processed

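Libraries were grouped from their titles into control and METTL3 knockdown, input and anti-m6A pull-down, 2 per group. Per the submitters' processing notes, the tools were edgeR, HOMER, fastp, StringTie, ChIPseeker and HISAT2 and the builds hg38 and GRCh38. No role is stated, so the peak caller is not given in the sources used here, nor are its filters. The log2 fold change and the p-value per peak are the authors', per the file headers. The score deposited by the authors is the base-10 logarithm of the FDR and was raised to the linear scale here. Its median ratio to Benjamini-Hochberg values recomputed from the p-values was 1.9. The sign was checked against the up or down label and matched in all 10987 peaks. The other deposited numbers, span width and distance to the transcript start, are in bases.

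A peak was called at an FDR under 0.05, and no test of differences between libraries could be made from this table. Genes were named if they had a called peak, the lowest or highest value of their role group, or 4 or more peaks. For the lists of other folding genes up to 4 called genes with the largest change were named, of which 1 is not reported here. MANF, OS9, MBTPS1, PAX8 and further members given with values only were chosen after their values were seen. Members and lists were chosen with earlier results of these data known. Of the 80 peaks 23 overlap RefSeq bounds of another gene, and 2 lie outside those of their own gene (FKBP10 and DNAJC16). An exon of another gene is named for 2, and 15 span over 2000 bases, introns included. The table has no strand. Tools were numpy 2.4.6, matplotlib 3.10.9 and pandas 2.3.3 under Python 3.11.15, and the adjustment and overlap code was tested on simulated data.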

Additional observations from a re-analysis of the deposited data

How the results depend on the processing

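No paired analysis was possible because the deposited table holds 1 value per peak and no value per library, and leaving out a library could not be run for the same reason. Of 98 recomputed values, 81 kept their direction and, for a single peak, their side of the threshold, with counts within 1.5 times the reported ones and medians within the spread of the peaks. Some of the 81 could not have changed. The largest of the authors' p-values for any called peak was 0.00427, so a limit of 0.01 on it kept every single-peak call. Leaving out symbols that do not name chaperones removed 0 peaks. At an FDR under 0.01, the HSPA4, HSPA6, DNAJB1, DNAJB12, FKBP15 and both FKBP2 calls were lost, 0 member peaks were called higher and 9 genes had a called peak. When a log2 change of 1 or more in either direction was also required, 0 member peaks were called lower, 0 in the 3' UTR, and 2 genes had a called peak. Of all 10987 peaks 314 met both limits, in either direction. Subtracting the all-peak median left 7 member peaks called higher, and the CANX peak of 4844 bases (0.033), DNAJB1 (0.105) and the FKBP2 peaks (0.125 and 0.119) changed sign. Shares over all peaks were not computed at an FDR under 0.01 or after this subtraction. Other counts of lower peaks ran from 10, without peaks on another RefSeq gene (chosen after the data were seen), to 21, with Benjamini-Hochberg values recomputed. The median fold change of the members ran from -0.334 to -0.304. The motif searches over whole peaks were not run, as no sequence of whole peaks was used here. Depth is unknown.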

Other observations

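Copies and antisense transcripts of the family, left out of the members by their descriptions, had 6 peaks in the authors' deposited table, of which 0 were called. Among all peaks 17.1% were called, so 6 peaks are too few to read this as a trait of the copies. PDIA3P1, a pseudogene copy of PDIA3, had peaks at 2.13 and -0.671 with FDRs of 0.289 and 0.356. CCT6P3, a pseudogene of a cytosolic chaperonin subunit, had the lowest value at -4.75 with an FDR of 0.37. HSP90B2P and HSP90AA2P, pseudogenes of the ER and cytosolic HSP90, had -2.14 and -0.537 with FDRs of 0.396 and 0.139, and DNAJC9-AS1 had -0.384 with an FDR of 0.302. Reads of such a copy and of its parent gene cannot be told apart here.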
